A study of Mus musculus with 9 samples.

Results

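The 10 genes described here encode the insulin-responsive glucose transporter of muscle and 9 enzymes or regulators of glycolysis and lactate metabolism. They are Slc2a4, Hk2, Pfkm, Pfkfb1, Aldoa, Pgam2, Eno3, Pkm2, Ldha and Ldhb. They were matched by symbol in a table of 23231 genes, and all 10 were among the 10794 genes tested. RNA came from the tibialis anterior, a fast hindlimb muscle, of C57BL/6 mice aged 6 months into which small interfering RNA (siRNA) had been electroporated. The groups were 3 libraries with siRNA construct 5 against Ubr4, 3 with siRNA construct 7 against Ubr4 and 3 with a non-targeting control siRNA. All 9 muscles thus shared the electroporation, and no muscle without it is among the groups. Ubr4 encodes a large E3 ubiquitin ligase that binds destabilising N-terminal residues of proteins. The series asks how ubiquitin ligases affect the size of muscle fibres.

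Glycolysis splits glucose into pyruvate in the cytosol and yields ATP without oxygen, and lactate dehydrogenase turns the pyruvate into lactate. Glucose enters the fibre through transporters of the Slc2a family and is trapped by hexokinase, and phosphofructokinase sets much of the flux that follows. Fast fibres such as those of the tibialis anterior are rich in these enzymes and use muscle isoforms for most steps.

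Ubr4 itself had 3.61, 3.80 and 2.73 FPKM with construct 5, 2.25, 2.58 and 3.07 FPKM with construct 7, and 7.82, 10.3 and 9.09 FPKM in controls. An FPKM value counts the fragments of a gene per kilobase of its length, corrected for how deeply the library was sequenced. Low FPKM values fall on steps of 1 read, and the step sizes gave depths of 29204000 to 45476000 reads. The largest counting error of any member was 3.61%, for Pfkfb1 in construct 5 replicate 1, so the spread between libraries and not counting limited what could be resolved. The labels do not say that the libraries came from separate animals, so p-values measure the spread between these samples. Construct 5 replicate 1 lay farthest out on the first principal component (score 23.8, against 2.26 at most for construct 7 and -6.46 at most for controls). Construct 5 replicates 2 and 3 scored 16.2 and 8.98, so the whole construct 5 group lay beyond the other groups. The calls named below and the correlations of Ldhb and Pgam2 are also given without construct 5 replicate 1.

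Mean levels in controls ran from 12.2 FPKM for Pfkfb1 to 5145 FPKM for Aldoa. Together the 10 genes had 14976 to 15154 FPKM with construct 5, 14775 to 15706 FPKM with construct 7 and 15553 to 16974 FPKM in controls. That was 3.03 to 3.16% of all FPKM with construct 5, 2.96 to 3.15% with construct 7 and 2.94 to 3.35% in controls, so the shares overlapped between all 3 groups. On the FPKM scale, which is per length, the order of mean levels was the same in each group: Aldoa, Eno3, Pgam2, Pkm2, Pfkm, Ldha, Slc2a4, Hk2, Ldhb and Pfkfb1. The neighbours Hk2 and Ldhb overlapped in all 3 groups, Pgam2 and Pkm2 overlapped with construct 5, and Pkm2 and Pfkm overlapped with construct 7. No other neighbours in that order overlapped within a group.

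**Figure D1:**
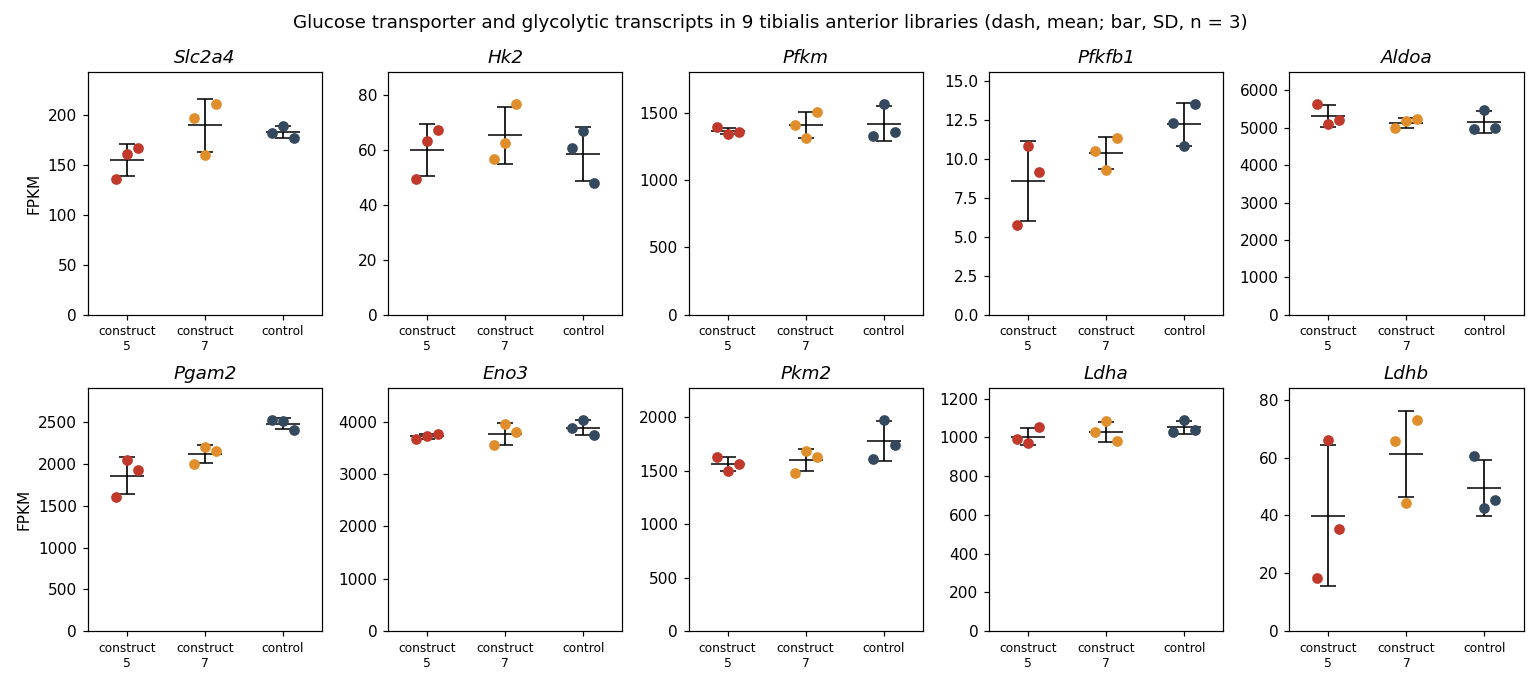
Level of each gene in FPKM (linear axes from 0) in the 3 construct 5, 3 construct 7 and 3 control libraries, 1 point a library, with the mean as a long dash and the SD as a bar. Pgam2 is the gene whose 6 Ubr4 siRNA libraries (1609.7 to 2203 FPKM) all lie below its 3 controls (2412 to 2531 FPKM).

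Of the 10 genes, 1 changed with construct 5, the muscle phosphoglycerate mutase Pgam2, which fell. None passed the test with construct 7 or with the mean of both constructs. The test was limma on log2(FPKM + 1) over all 9 libraries, with Benjamini-Hochberg adjusted p-values over the 10794 genes and calls at an adjusted p under 0.05. The background with construct 5 was 5.27% of all genes called, with 4.67% of all genes called higher and 0.602% lower. That balance depended on the scaling. As reported 504 genes were called higher and 65 lower, against 28 and 169 with median-ratio scaling and 13 and 69 with quantile normalization. With construct 7 it was 0.0556% of genes called, and with both constructs 0.00926%. At an unadjusted p under 0.05 in limma, 1 member (Pgam2) passed with construct 7 and 2 (Pfkfb1 and Pgam2) with both constructs. Of all 10794 tested genes, 1022 passed that threshold with construct 7 and 2066 with both constructs. Log2 changes below are on the log2(FPKM + 1) scale, which understates the change of the genes with low FPKM.

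The values of all genes were not centred on 0 with construct 5, where the median log2 change of all tested genes was 0.13 and the members' median was -0.12. All 10 members lay below that median of all genes, and 8 of them lay below 0, against 23.3% of all tested genes. With construct 7 the median of all genes was 0.02 and that of the members -0.02, and 7 of 10 members lay below 0, against 43% of all genes. Median-ratio scaling brought the all-gene median with construct 5 to -0.02 and the members' median to -0.31, with all 10 members below 0. Scaling each library to totals of 1000000 gave 0.20 and -0.06, with 6 members below 0. With quantile normalization 8 members lay below the all-gene median of -0.01. Without construct 5 replicate 1, 9 members lay below the all-gene median, and the members' median was -0.0627.

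**Figure D2:**
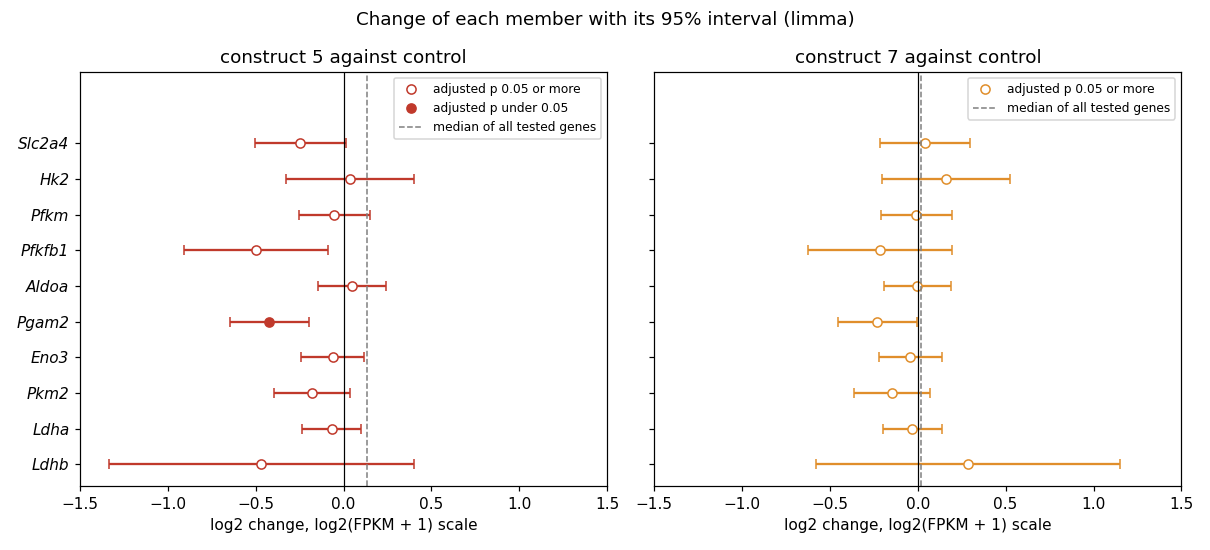
Log2 change of each gene on the log2(FPKM + 1) scale, with its 95% interval from limma, for construct 5 against control on the left and construct 7 against control on the right (filled points, adjusted p under 0.05). With construct 5 the Pgam2 point at -0.42 is the filled one, and all 10 points lie left of the dashed median of all tested genes at 0.13.

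Pgam2 encodes the muscle form of phosphoglycerate mutase, which moves the phosphate of 3-phosphoglycerate to the neighbouring carbon. In humans, loss of this enzyme is the cause of a muscle glycogen storage disease. Pgam2 had 1609.7, 2048 and 1933 FPKM with construct 5, 1998, 2203 and 2161 FPKM with construct 7, and 2531, 2514 and 2412 FPKM in controls. Every library with a Ubr4 siRNA lay below every control, and the constructs overlapped each other. Libraries of both constructs all lay below the controls in 1.45% of all tested genes. The mean was 1863 ± 227 FPKM with construct 5 and 2121 ± 108 FPKM with construct 7, against 2486 ± 64.6 FPKM in controls (SD, n = 3 each). These means were 75.0% and 85.3% of the control mean. Pgam2 fell by 0.42 on the log2 scale with construct 5 (limma, SE 0.101, 95% interval -0.65 to -0.20, adjusted p = 0.0494). With construct 7 the change was -0.23 (SE 0.101, adjusted p = 0.520), and with both constructs it was -0.33 (SE 0.0874, adjusted p = 0.123). The contrasts with control share the same 3 control libraries, so they are not separate evidence.

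The Pgam2 call sat at the edge of the threshold. It held as reported and under 4 of the 20 alternatives, with adjusted p-values in limma of 0.0445 to 0.154 over the alternatives and a log2 change of -0.61 to -0.32. Without construct 5 replicate 1, the lowest library, the change was -0.32 and the adjusted p 0.154.

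**Figure D3:**
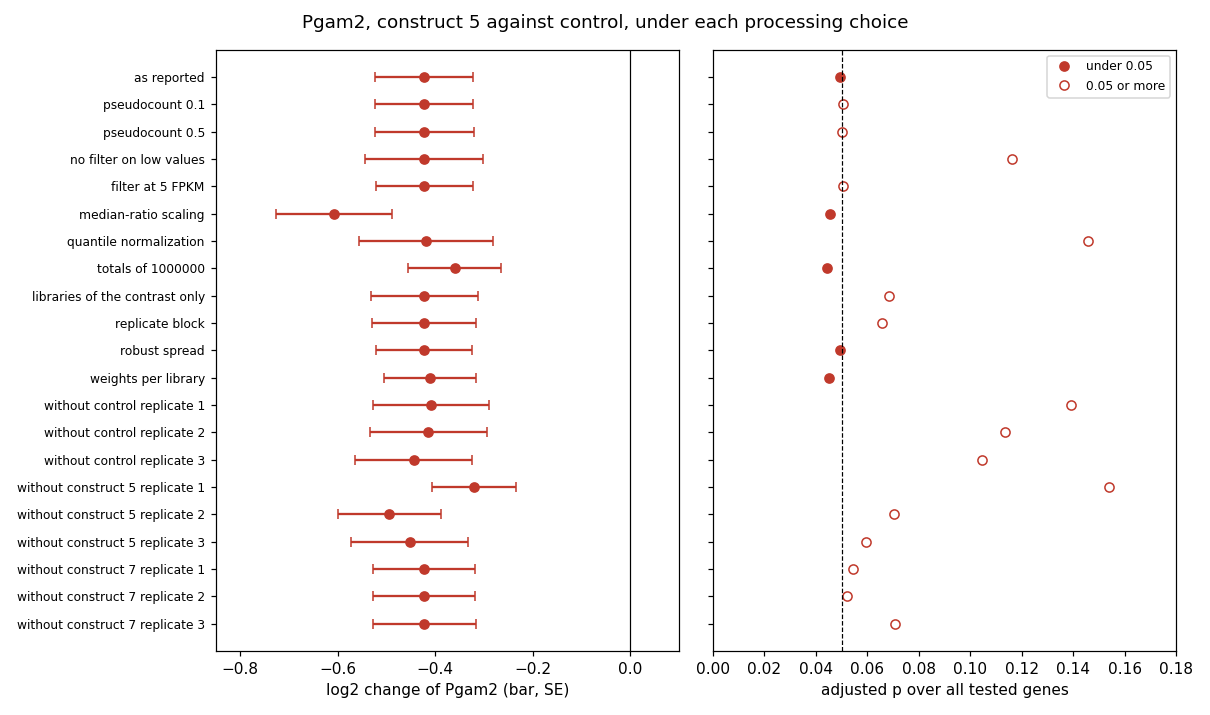
Pgam2 with construct 5 against control under each processing choice: log2 change with its SE on the left, adjusted p on a linear axis on the right, with the threshold dashed. The log2 change is negative in every row, while the adjusted p crosses the threshold, between 0.0445 and 0.154.

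Markers of some other cell types stood higher with construct 5 and those of others did not. The summed level of 13 macrophage markers was 213 to 382 FPKM with construct 5, 105 to 160 FPKM with construct 7 and 129 to 191 FPKM in controls. All 12 tested macrophage markers had positive log2 changes with construct 5, and 3 of them (Lyz2, Lgals3 and Gpnmb) passed the test. In the FPKM as deposited, most genes moved that way with construct 5: 23.3% of all tested genes lay below 0, and 4.67% were called higher. No macrophage marker in the table stood at 0 in any library. The 6 tendon markers summed to 100 to 147 FPKM with construct 5, 35.2 to 77.4 FPKM with construct 7 and 45.1 to 66.0 FPKM in controls, and 2 of them (Kera and Comp) rose with construct 5. The 7 fibroblast markers summed to 451 to 694 FPKM with construct 5, 288 to 311 FPKM with construct 7 and 359 to 415 FPKM in controls, and 1 of them (Col1a2) rose with construct 5. The 6 satellite cell and myoblast markers summed to 46.4 to 70.3 FPKM with construct 5, 28.3 to 50.3 FPKM with construct 7 and 22.1 to 33.3 FPKM in controls. In that list Pax7 and Myf5 fell below the filter (at most 0.888 and 0.972 FPKM). Its sums came mainly from Myod1, Myog, Myh3 and Myh8. The 6 denervation markers, which share Myog with that list, summed to 28.3 to 43.8 FPKM with construct 5, 14.3 to 36.5 FPKM with construct 7 and 13.0 to 18.4 FPKM in controls. All 3 tested adipocyte and 2 tested neutrophil markers also lay above 0 with construct 5, but none passed and their groups overlapped. Their sums were highest in construct 5 replicate 2 (377 and 34.0 FPKM). By contrast, 2 of 6 tested endothelial markers lay above 0 with construct 5, with sums of 80.2 to 104 FPKM against 84.7 to 97.4 FPKM in controls, and none of 3 Schwann cell or 4 erythroid markers did. The 6 marker calls named here were lost without construct 5 replicate 1 (limma, adjusted p = 0.138 to 0.154), with log2 changes of 0.67 to 1.12. With all libraries those log2 changes were 0.61 to 1.36. Leaving out a control library also cut the construct 5 calls over all genes, from 569 to 4, 4 or 2. The 10 fast-fibre markers summed to 54926 to 64069 FPKM with construct 5, 50983 to 65337 FPKM with construct 7 and 60661 to 66850 FPKM in controls, and none passed the test. Of these, the fast troponins Tnnt3, Tnni2 and Tnnc2 lay below every control with both constructs, as did Pgam2 and 1.45% of all tested genes. Their log2 changes with construct 5 were -0.24, -0.27 and -0.19 (limma, adjusted p = 0.122, 0.0949 and 0.221) and with construct 7 -0.19, -0.24 and -0.22 (adjusted p = 0.586, 0.454 and 0.560). Mylpf lay below every control with construct 5 only. Other fast-fibre markers went the other way, and 4 of the 10 lay above 0 with each construct. Among them were Myh4 (log2 changes 0.19 and 0.15) and Myh1 (0.41 and 0.52). With construct 7, Myh2 lay above every control (log2 change 0.58, limma, adjusted p = 0.587). The 8 slow-fibre markers summed to 81.5 to 111 FPKM with construct 5, 74.7 to 105 FPKM with construct 7 and 57.7 to 78.2 FPKM in controls. Of 7 tested, 6 lay above 0 with construct 5 and none passed. In 3 of them every construct 5 library lay above every control, as in 33% of all tested genes. The part of these marker shifts in the level of Pgam2 was not tested. In such bulk samples fewer fibres of a type and less RNA per fibre cannot be told apart.

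Pgam2 and Eno3 encode successive muscle isoforms of the pathway, and their RefSeq promoters are shown because Pgam2 fell with construct 5 while Eno3 did not pass the test. The changes of these genes were not tested against each other. Each sequence runs 5′ to 3′ in the direction of the gene, from 250 bases before its start to 50 bases after it, in build GRCm38.p6. Pgam2 lies on the minus strand at chr11:5803747-5804046 and Eno3 on the plus strand at chr11:70656926-70657225. Capitals mark the E-box CAGCTG, the letters bound by MyoD and other myogenic factors, and, in Pgam2, a match to the motif of the MEF2 factors.
Pgam2: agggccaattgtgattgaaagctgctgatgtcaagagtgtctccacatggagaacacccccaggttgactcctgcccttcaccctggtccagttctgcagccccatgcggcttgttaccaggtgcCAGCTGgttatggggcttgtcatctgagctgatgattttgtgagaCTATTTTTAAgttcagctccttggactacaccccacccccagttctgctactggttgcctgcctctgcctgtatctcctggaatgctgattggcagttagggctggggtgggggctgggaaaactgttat
Eno3: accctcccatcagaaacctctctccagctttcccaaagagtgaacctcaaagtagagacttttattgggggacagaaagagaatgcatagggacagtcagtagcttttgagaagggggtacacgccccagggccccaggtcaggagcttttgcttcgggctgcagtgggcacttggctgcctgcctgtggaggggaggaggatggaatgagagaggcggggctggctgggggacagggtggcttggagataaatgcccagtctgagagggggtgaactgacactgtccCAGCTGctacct
In Pgam2 the MEF2 match lay at position -80 and the E-box at -125 from the start, and in Eno3 the E-box lay at position 39 after the start. CAGCTG is its own reverse complement and both strands were searched for each motif. RefSeq gave 19 promoters for 9 members. CAGCTG was held by 5 of the 19 (26.3%, in Pfkfb1, Aldoa, Pgam2, Eno3 and Pkm2), against 16.3% of 32851 mouse promoters of this length. A MEF2 match was held by 2 of the 19 (10.5%, in Pfkfb1 and Pgam2), against 3.19% of all promoters. The hypoxia-response core ACGTG was held by 7 of the 19 (36.8%, in Hk2, Pfkm, Aldoa, Pkm2 and Ldha), against 19.6% of all promoters. Promoters of 1 gene can overlap, so the 19 are not independent. A match describes letters in this window and is not a measured binding site. Any part of these motifs in the levels of the members was not tested.

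Slc2a4 encodes GLUT4, the transporter that insulin and contraction bring to the surface of muscle fibres. Slc2a4 had 136, 161 and 166 FPKM with construct 5, 197, 160.1 and 211 FPKM with construct 7, and 182, 189 and 177 FPKM in controls. The 3 construct 5 libraries all lay below the 3 controls, which spanned a narrow range, whereas construct 7 lay on both sides of them. The log2 change was -0.25 with construct 5 (limma, SE 0.114, 95% interval -0.50 to 0.01, adjusted p = 0.171) and 0.04 with construct 7 (adjusted p = 0.957). Without construct 5 replicate 1 the construct 5 value was -0.16 (adjusted p = 0.443).

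Hk2 encodes hexokinase 2, which phosphorylates the glucose that GLUT4 lets in. Hk2 had 49.5, 63.4 and 67.4 FPKM with construct 5, 56.9, 62.6 and 77.0 FPKM with construct 7, and 61.0, 67.0 and 47.9 FPKM in controls. All 3 groups overlapped. Hk2 had a log2 change of 0.04 with construct 5 (limma, adjusted p = 0.890) and 0.16 with construct 7 (adjusted p = 0.823). The construct 5 value was -0.15 with median-ratio scaling, so Hk2 had no stable direction there.

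Pfkm encodes the muscle phosphofructokinase, the committed step of glycolysis. Pfkm had 1389, 1342 and 1355 FPKM with construct 5, 1409, 1309 and 1507 FPKM with construct 7, and 1329, 1567 and 1356 FPKM in controls. The groups overlapped, and construct 5 spanned a narrower range (SD 24.3 FPKM) than controls (SD 130 FPKM). Its log2 changes were -0.05 with construct 5 and -0.01 with construct 7, with adjusted p-values of 0.701 and 0.993 in limma.

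Pfkfb1 encodes an isoform of the bifunctional enzyme that makes and breaks fructose 2,6-bisphosphate, the activator of phosphofructokinase. It was the least abundant member, with 5.77, 10.8 and 9.15 FPKM with construct 5, 10.5, 9.31 and 11.3 FPKM with construct 7, and 12.3, 10.8 and 13.6 FPKM in controls. The highest construct 5 library and the lowest control library were equal to 3 digits, and the other construct 5 libraries lay below the controls. Its log2 change with construct 5 was -0.50 (limma, SE 0.182, 95% interval -0.91 to -0.09, adjusted p = 0.107), the most negative of the 10. Without construct 5 replicate 1 it was -0.27 (adjusted p = 0.259). With construct 7 it was -0.22 (adjusted p = 0.762).

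With construct 5, Slc2a4, Pfkfb1 and Pgam2 were the 3 members whose libraries all lay below the controls (Pfkfb1 by a margin below the digits printed), and no member lay above them. Among all tested genes 5.19% lay below the controls in this way and 33% above. With construct 7, 1 member (Pgam2) lay below all controls and none above, against 6.26% below and 10.5% above among all tested genes.

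Aldoa encodes aldolase A, which splits fructose 1,6-bisphosphate into triose phosphates, and it was the most abundant member. Aldoa had 5644, 5092 and 5207 FPKM with construct 5, 4979.7, 5185 and 5235 FPKM with construct 7, and 4964, 5483 and 4987 FPKM in controls. The highest library was a construct 5 one, and the groups overlapped. Aldoa had a log2 change of 0.05 with construct 5 (limma, adjusted p = 0.721) and -0.002 with construct 7 (adjusted p = 0.998).

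Eno3 encodes the muscle enolase, which makes phosphoenolpyruvate. Eno3 had 3674, 3729 and 3759.8 FPKM with construct 5, 3549, 3964 and 3796 FPKM with construct 7, and 3878, 4035 and 3738 FPKM in controls. The construct 5 libraries lay close together at the low end of the controls and overlapped them. Eno3 had a log2 change of -0.06 with construct 5 (limma, 95% interval -0.24 to 0.12, adjusted p = 0.611) and -0.04 with construct 7 (adjusted p = 0.920).

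Pkm2 is the table's symbol for the gene of muscle pyruvate kinase, which makes pyruvate and ATP. The row holds the whole gene, so the M1 and M2 splice forms could not be told apart. Pkm2 had 1626, 1494 and 1567 FPKM with construct 5, 1483, 1686 and 1632 FPKM with construct 7, and 1613, 1976 and 1739 FPKM in controls. Controls reached higher levels than either construct, but 1 library of construct 5 and 2 of construct 7 lay above the lowest control. The log2 change was -0.18 with construct 5 (limma, adjusted p = 0.221) and -0.15 with construct 7 (adjusted p = 0.688).

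Ldha encodes the lactate dehydrogenase subunit that predominates in fast muscle. Ldha had 989.7, 968.9 and 1054 FPKM with construct 5, 1026, 1082 and 980.3 FPKM with construct 7, and 1029, 1090.5 and 1038 FPKM in controls. It varied least of the members over the 9 libraries together with Eno3 and Aldoa, and the groups overlapped. The log2 change was -0.07 with construct 5 (limma, 95% interval -0.24 to 0.10, adjusted p = 0.542) and -0.03 with construct 7 (adjusted p = 0.945).

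Ldhb encodes the subunit typical of heart and oxidative muscle. Ldhb had 18.2, 66.2 and 35.4 FPKM with construct 5, 65.9, 44.4 and 73.1 FPKM with construct 7, and 60.7, 42.5 and 45.4 FPKM in controls. It was the most variable member, its highest library being 4.02 times its lowest, while the other members had ratios of 1.13 to 2.35. Construct 5 reached from below the lowest control to above the highest, and construct 7 overlapped the controls and reached higher. The log2 change was -0.47 with construct 5 (limma, SE 0.386, adjusted p = 0.412) and 0.29 with construct 7 (adjusted p = 0.878). Without construct 5 replicate 1, which held the lowest value, the construct 5 change was -0.01 (adjusted p = 0.983).

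The 2 genes closest to Ldhb in pattern over the 9 libraries were Acadm and Cd36, both of fatty acid use. Acadm, which encodes the medium-chain acyl-CoA dehydrogenase of beta-oxidation, had a Pearson r of 0.98 with Ldhb on the log2(FPKM + 1) scale, and Cd36, a fatty acid transporter, had 0.96. Acadm had 78.7, 118 and 97.1 FPKM with construct 5, 113, 102 and 129 FPKM with construct 7, and 115, 103 and 103 FPKM in controls. Cd36 had 49.2, 80.8 and 59.2 FPKM with construct 5, 74.9, 65.9 and 88.5 FPKM with construct 7, and 76.2, 61.9 and 64.3 FPKM in controls. Both were lowest in construct 5 replicate 1 and highest in construct 7 replicate 3, as was Ldhb. The member Slc2a4 had the same lowest and highest libraries (136 and 211 FPKM). So did several genes of the pyruvate, lactate and pyruvate dehydrogenase list described below, so this order was not particular to fatty acid use. The sum of the 8 slow-fibre markers did not follow that order, with 81.5, 111 and 103 FPKM with construct 5, 74.7, 105 and 80.8 FPKM with construct 7, and 78.2, 70.8 and 57.7 FPKM in controls. Their defining myosin Myh7 did not exceed 1.49 FPKM in any library. Of the 8, only Myl3 was lowest in construct 5 replicate 1 (7.64 FPKM), and its highest library was construct 7 replicate 1 (49.3 FPKM). Of the 10 fast-fibre markers, only Myh2 had the lowest and highest libraries of Ldhb, at 52.4 and 148 FPKM. Acadm and Cd36 were named as the 2 tested genes with the highest r, which describes 9 libraries of 3 groups and carries no test. With construct 5 replicate 1 left out, r was 0.95 for Acadm and 0.97 for Cd36.

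**Figure D4:**
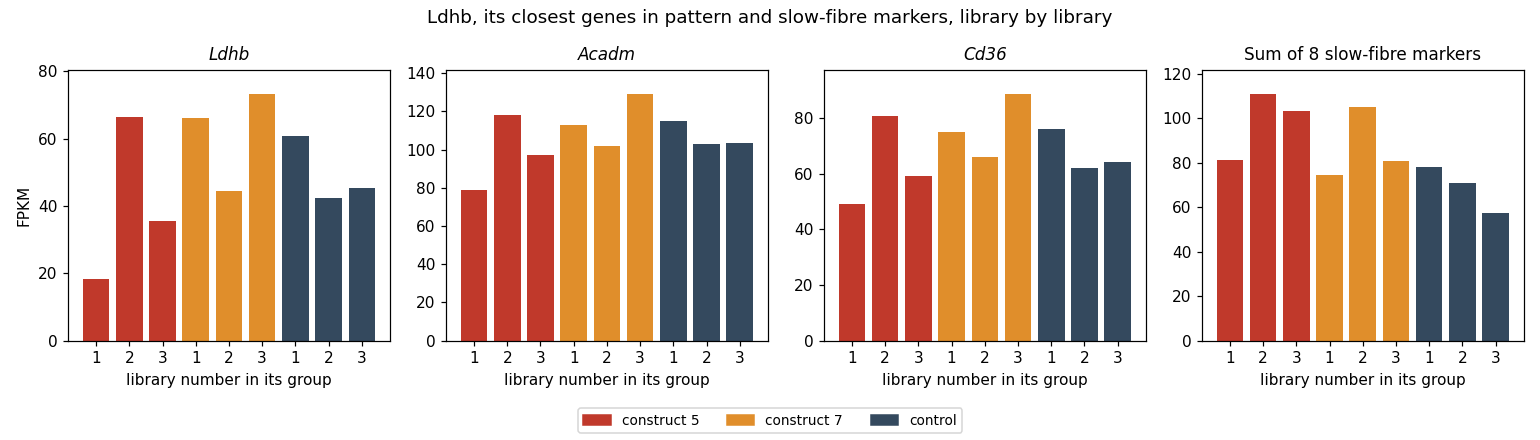
FPKM of Ldhb, of its closest genes in pattern, Acadm and Cd36, and the sum of 8 slow-fibre markers, 1 bar a library (construct 5, construct 7, control; axes start at 0). Ldhb, Acadm and Cd36 are lowest in construct 5 replicate 1 (18.2, 78.7 and 49.2 FPKM) and highest in construct 7 replicate 3 (73.1, 129 and 88.5 FPKM).

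For Pgam2 the closest genes were Inpp5a, an inositol polyphosphate phosphatase (r of 0.98), and Smpd1, the lysosomal acid sphingomyelinase (r of 0.92). Inpp5a and Smpd1 were lower with construct 5, by 0.46 and 0.57 on the log2 scale (limma, adjusted p = 0.0406 each). They were picked for their likeness to Pgam2 over the same 9 libraries, so a fall with construct 5 follows from that choice. It is not separate evidence. Both calls were lost without construct 5 replicate 1 (log2 changes -0.39 and -0.47, adjusted p = 0.138 each), where r was 0.97 for Inpp5a and 0.83 for Smpd1. With construct 7 their values were -0.26 and -0.14 (adjusted p = 0.365 and 0.688). The closest gene was Cyb5b for Slc2a4 (0.97), Synj2 for Hk2 (0.96), Lrpprc for Pfkfb1 (0.96) and Golga3 for Aldoa (0.96). It was Prpf31 for Eno3 (0.96), Atp5g2 for Pkm2 (0.89), Klhl38 for Pfkm (0.87) and Asph for Ldha (0.84). Among the 45 pairs of members, all over the same 9 libraries, the median r was 0.22, and 14 pairs lay above 0.5. Pfkfb1 with Pgam2 had the highest value (0.85) and Pfkfb1 with Aldoa the lowest (-0.76). These were 0.64 and -0.42 without construct 5 replicate 1.

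The muscle isoform of a step made up nearly all of the FPKM of its family in every group. Slc2a4 held 98.5% of the sum of Slc2a4 and Slc2a1 with construct 5, 98.9% with construct 7 and 98.8% in controls. Hk2 held 96.3%, 97.4% and 97.6% of the sum with Hk1 in construct 5, construct 7 and control libraries. Pfkm, Aldoa, Pgam2 and Eno3 each held over 99% of their family. Pgam2 held 99.5% of the sum with Pgam1 in construct 5 libraries, 99.6% in construct 7 libraries and 99.7% in controls. With both constructs its difference was -0.109 percentage points (two-sided exact permutation test, p = 0.0238, the smallest that 6 libraries against 3 allow; 0.286 adjusted over the 24 share tests). Ldha held 96.2 ± 2.35% of the sum of Ldha and Ldhb with construct 5, 94.4 ± 1.54% with construct 7 and 95.5 ± 0.951% in controls (SD, n = 3 each). Pfkfb1 was the exception, with 21.0% of the Pfkfb1 to Pfkfb4 sum with construct 5, 23.9% with construct 7 and 26.3% in controls. No share passed after adjustment, and 3 libraries against 3 cannot go below p = 0.1 in an exact permutation test.

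Construct 7 was also compared with construct 5, and none of the 10 genes passed, with 1.22% of all tested genes called. At an unadjusted p under 0.05 in limma, 1 member (Slc2a4) passed, against 2491 of all 10794 tested genes. Pgam2 had a log2 change of 0.19 for construct 7 over construct 5 (limma, 95% interval -0.03 to 0.42, adjusted p = 0.279). Slc2a4 had 0.29 (95% interval 0.03 to 0.54, adjusted p = 0.181), and its groups overlapped. Ldhb had 0.75 (adjusted p = 0.271) and Pfkfb1 0.28 (adjusted p = 0.366). For 9 of 10 members the value was above 0, while 75.5% of all tested genes lay below 0, with a median of -0.10. No member was free of overlap between the constructs, against 25.4% of all tested genes. These values do not show that the constructs act alike on these genes, since the Pgam2 interval reaches 0.42, the size of its change with construct 5.

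The neighbouring steps and branches were read from 7 lists of other genes, 119 of them tested. With construct 5, 6 of the 119 rose (5.04%, against 4.67% of all tested genes) and none fell. With construct 7, with both constructs, and between constructs, none passed in limma, where an unadjusted p under 0.05 was reached by 11, 19 and 24 genes. Of all 10794 tested genes, 1022, 2066 and 2491 reached it in these contrasts. The list medians with construct 5 ranged from -0.09 to 0.27, around the 0.13 of all genes.

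Among 12 tested enzymes and isoforms of glycolysis outside the 10, none passed, and their median log2 change was 0.12 with construct 5 and 0.01 with construct 7. Gapdh, the glyceraldehyde phosphate dehydrogenase, had 1642 ± 85.2 FPKM with construct 5 and 1627 ± 166 FPKM with construct 7, against 1621 ± 178 FPKM in controls. Hk1, the widely expressed hexokinase, had 2.24 ± 0.515 FPKM with construct 5 against 1.44 ± 0.0689 FPKM in controls (log2 change 0.40, limma, adjusted p = 0.133). None of 21 glycogen metabolism genes passed (medians 0.06 with construct 5 and 0.04 with construct 7). None of 20 genes of glucose transport and insulin-regulated traffic passed either (medians 0.09 and 0.02). Tbc1d1, a Rab regulator of GLUT4 traffic, had 10.6 ± 1.57 FPKM with construct 5 against 17.7 ± 5.61 FPKM in controls (log2 change -0.65, adjusted p = 0.103).

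Of 23 genes of pyruvate, lactate and pyruvate dehydrogenase, 1 rose with construct 5. This was Emb (embigin), which escorts lactate transporters to the membrane, with 2.04 ± 0.595 FPKM with construct 5 against 0.955 ± 0.109 FPKM in controls (log2 change 0.62, limma, adjusted p = 0.0471). Of the whole list, 17 of 23 genes lay below 0 with construct 5, against 23.3% of all tested genes. For several of them construct 5 replicate 1 was the lowest of the 9 libraries, and the count without it is not given here. The list median was -0.09 with construct 5 and 0.07 with construct 7. Slc16a3, the lactate exporter MCT4 of fast fibres, had 54.1 ± 6.41 FPKM with construct 5 and 55.7 ± 8.56 FPKM with construct 7, against 70.6 ± 10.9 FPKM in controls. Its log2 changes were -0.37 and -0.34 (adjusted p = 0.119 and 0.504).

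The pentose phosphate and hexosamine branch had the highest list median with construct 5 (0.27), and 0.06 with construct 7. With construct 5, 13 of its 14 tested genes lay above 0, where 23.3% of all tested genes lay below 0. Gfpt1, the first enzyme of hexosamine synthesis, rose to 6.32 ± 0.696 FPKM with construct 5, against 4.61 ± 0.381 FPKM in controls (log2 change 0.38, limma, adjusted p = 0.0494). Gnpnat1, the acetylating enzyme of that branch, rose to 3.20 ± 0.0708 FPKM with construct 5, against 2.31 ± 0.133 FPKM in controls (log2 change 0.34, adjusted p = 0.0406). Pgd, a pentose phosphate enzyme that makes NADPH, had 4.11 ± 0.848 FPKM with construct 5 against 2.38 ± 0.264 FPKM in controls (log2 change 0.59, adjusted p = 0.0559).

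Of 19 transcription factors known to act on glycolytic genes, 3 rose with construct 5, where 4.67% of all tested genes did. Nfe2l2, the antioxidant factor NRF2, had 11.4 ± 0.236 FPKM with construct 5 and 9.88 ± 0.264 FPKM with construct 7, against 7.92 ± 0.619 FPKM in controls. Its log2 changes were 0.48 and 0.29 (limma, adjusted p = 0.0344 and 0.278). Mef2a, a MEF2 factor, had 22.1 ± 0.175 FPKM with construct 5 and 20.0 ± 1.12 FPKM with construct 7, against 17.2 ± 1.58 FPKM in controls (log2 changes 0.35 and 0.21, adjusted p = 0.0476 and 0.421). Arnt, the partner of the hypoxia-inducible factors, had 6.33 ± 0.209 FPKM with construct 5 against 5.01 ± 0.316 FPKM in controls (log2 change 0.29, adjusted p = 0.0494). None of 10 genes of gluconeogenesis and glycolytic regulation passed. All 6 calls in these lists were lost with median-ratio scaling (adjusted p = 0.0564 to 0.260) and without construct 5 replicate 1 (0.138 to 0.160). The shifts in macrophage, fibroblast, tendon and myoblast markers given above accompany them, and their part in these 6 genes was not tested.

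**Figure D5:**
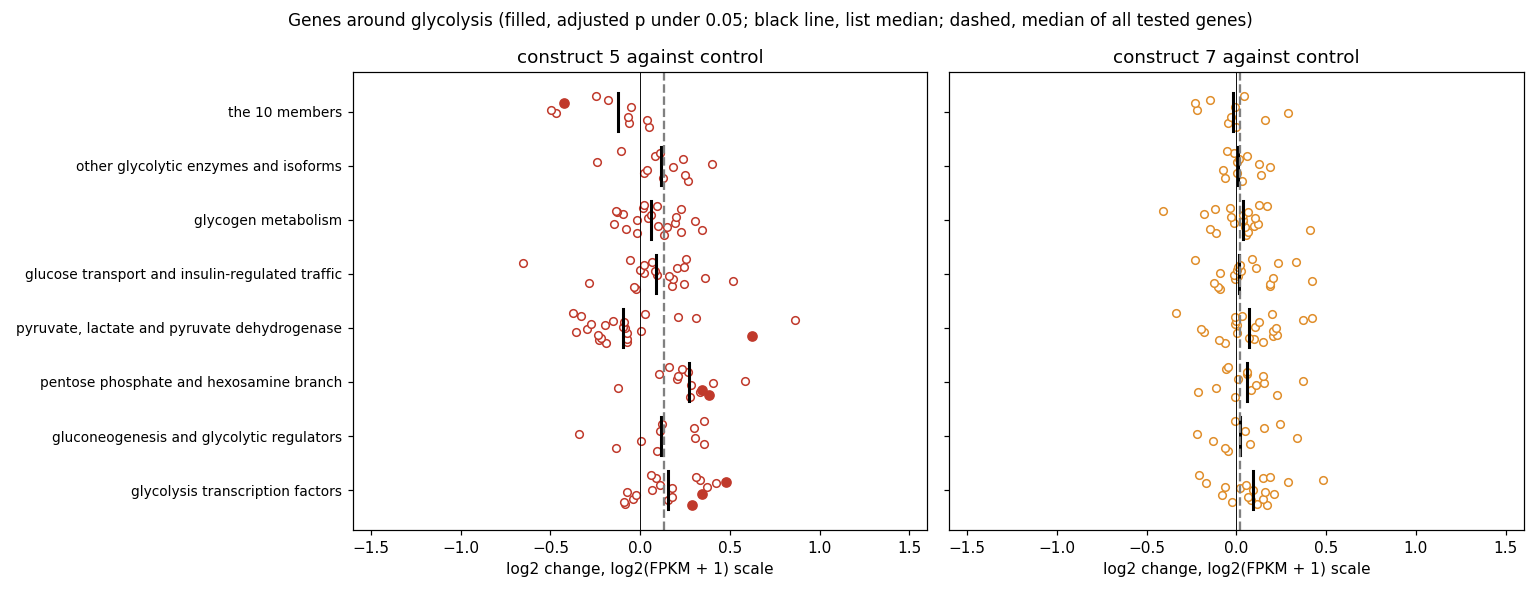
Log2 change of every tested gene in the 10 members and 7 lists around glycolysis, for construct 5 against control on the left and construct 7 against control on the right (filled, adjusted p under 0.05). With construct 5 the members' median (black line, -0.12) lies left of the dashed median of all tested genes (0.13), and the filled points are Pgam2 and 6 genes with higher levels.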

How the data were processed

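Expression was measured by RNA sequencing of trizol-extracted total RNA in 9 libraries. The deposited table holds FPKM values, which the authors made with tools named in the submitters' processing notes as BWA, STAR and HTSeq on build mm9. The role and version of each tool, the annotation and the use of strand are not given in the sources used here. The exons of Pfkm, Pfkfb1, Aldoa and Pkm2 overlap other genes in GENCODE M21 (0.54 to 15.3% of exon length), so reads there could have been split or shared.

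Genes with a mean of at least 1 FPKM (10794 of 23231) were tested on log2(FPKM + 1) over all 9 libraries. The model was limma's (version 3.58.1, run in R 4.3.3), with a variance trend in eBayes. Adjustment followed Benjamini-Hochberg within each of 4 contrasts. Means and SD use FPKM. Isoform shares were tested by exact permutation with scipy 1.17.1, adjusted over 24 tests. Library depth was recovered from low FPKM values with GENCODE M21 exon lengths for 21334 genes. Of the low values, 80.9 to 82.7% were whole within 0.1 reads, so no count test was run. At these depths 3 reads on 1 kilobase are 0.066 to 0.103 FPKM, a floor for counting error only.

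All 10 members were named. In each list the called genes and up to 4 with the smallest p per construct could be named, and for each member the 2 genes most correlated with it. Alternatives were other pseudocounts and filters, 3 other scalings (median-ratio scaling used genes above 0 in every library), other variance models, the replicate block and leaving out each library. Correlations without construct 5 replicate 1 were added after seeing the data. The members and lists were chosen with earlier results of these data known. Promoters come from RefSeq (GRCm38.p6), which matched 9 of 10 members (Pkm2 through the symbol Pkm).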

Additional observations from a re-analysis of the deposited data

How the results depend on the processing

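The number of members called with construct 5 was 1 as reported, and 1 with median-ratio scaling, totals of 1000000, robust spread and weights per library. It was 0 with a pseudocount of 0.1 or 0.5, without the filter, with the filter raised to 5 FPKM, and with quantile normalization, the libraries of the contrast only and the replicate block, and 0 to 0 when each library was left out. Under the other contrasts it stayed 0 in all 20 alternatives. Over all genes the construct 5 calls numbered 569 as reported, 197 with median-ratio scaling, 82 with quantile normalization and 1024 with totals of 1000000. Most were higher as reported (504) and with totals of 1000000 (978). Most were lower with median-ratio scaling (169) and quantile normalization (69). With a library left out they numbered 1 to 581, the 1 being without construct 5 replicate 1. Ubr4 itself then had -1.24 (limma, adjusted p = 0.0956). Without control replicates 1, 2 and 3 the calls numbered 4, 4 and 2. Without construct 5 replicates 2 and 3 they numbered 41 and 525. Without construct 7 replicates 1, 2 and 3 they numbered 356, 581 and 6.

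Several values near 0 changed sign. With construct 5, Hk2 was -0.15 with median-ratio scaling and -0.0161 with quantile normalization, and Aldoa was -0.14 and -0.0120 under the same choices. Eno3 was 0.12 with quantile normalization and 0.00111 with totals of 1000000, and Pfkm was 0.00901 with totals of 1000000. With construct 7, Pfkm was 0.0153 with totals of 1000000 and 0.0317 with weights per library, and Aldoa was 0.0333 with quantile normalization, 0.0209 with totals of 1000000 and 0.0108 with weights. The cause was not tested.

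With 1 library left out, log2 changes with construct 5 ranged from -0.10 to 0.17 for Hk2 and from -0.10 to 0.0212 for Pfkm. With construct 7 they ranged from -0.0417 to 0.16 for Slc2a4, from -0.0575 to 0.0667 for Pfkm, from -0.0270 to 0.0446 for Aldoa and from -0.0690 to 0.00245 for Ldha. With both constructs they ranged from -0.32 to 0.14 for Ldhb. Differences in isoform share, in percentage points, ranged from -0.0105 to 0.0227 (Pfkm), -4.65 to 0.0589 (Pfkfb1), -0.49 to 0.44 (Hk2) and -0.19 to 0.0542 (Eno3) with construct 7. They ranged from -0.32 to 1.98 (Ldha) with construct 5, and from -0.81 to 0.22 (Ldha) and -0.14 to 0.0326 (Slc2a4) with both.

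Same-numbered libraries of different groups had correlated deviations of -0.364 to 0.313, so the replicate numbers were not taken as pairs. With the replicate block the Pgam2 adjusted p with construct 5 was 0.0656 (limma) and 11 genes were called in all. With 3 libraries a group, the 95% intervals of 8 of 10 members included 0 with construct 5; counting errors of at most 3.61% were not the limit.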
